A study of Citrullus lanatus with 4 samples.

Results

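The genes described here were raised in the floral buds of a male sterile watermelon line and not in its flowers. They numbered 148 of the 23440 genes in the count table, of which 19732 had a count in any library. Counts were divided by the library total and scaled to CPM (counts per 1000000). A gene was taken when it had at least 10 CPM in floral buds of DAH3615-MS, a ratio of DAH3615-MS to DAH3615 of at least 2 in floral buds, and a ratio between 0.67 and 1.5 in flowers, with both ratios on CPM + 1. The members are 1.33% of the 11110 genes that reached 10 CPM in floral buds of DAH3615-MS. All 4 libraries were used to choose them, so their levels, ratios and differences between organs are a description, and none of them is a test independent of the choice.

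RNA was sequenced from flowers and floral buds of DAH3615-MS and of its near-isogenic line DAH3615, with 1 library for each of the 4 conditions and no replicate of any condition. DAH3615-MS is genic male sterile and homozygous for the recessive allele (msms), which was derived from the ms-1 line. DAH3615 is male fertile and carries 1 functional allele (Msms). Both came from a backcross population that segregates for fertility, and all plants were grown in a greenhouse. Flowers were taken on the day of opening and floral buds shortly before it. The DAH3615-MS floral buds were shorter than those of DAH3615 and flowers came from other nodes than floral buds, so line and bud size cannot be told apart in the bud comparison. Whole buds and flowers were used, and in such samples fewer cells of a type and less RNA per cell cannot be told apart.

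In a developing anther the tapetum, a nursing cell layer around the young pollen, feeds it and then breaks down as the pollen matures, before the anther opens. Genes of successive stages are switched on and off in turn. In genic male sterility a nuclear gene is defective and pollen does not form, while the remaining flower organs develop. A comparison of whole buds of such lines therefore contains the anther, the other organs and their stage of growth together. The question put to these genes was whether they were lower in flowers than in floral buds in both lines, which is the arrangement that a gene of younger buds would have.

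The 4 libraries held between 5239032 and 6315796 counts on genes. Column totals put the median gene with at least 10 CPM in floral buds of DAH3615-MS 0.19 higher in DAH3615-MS than in DAH3615 on the log2 scale in floral buds, and 0.15 higher in flowers. With TMM, which scales libraries by the bulk of genes, these medians were 0.06 and 0.01. With TMM values, 82 of the 148 genes kept a floral bud ratio of at least 2, and the lowest ratio was 1.84. The annotation used here covers the first 1999 rows of the study's annotation in order of gene ID, so each list below holds only part of its class. It gave 16 genes of anther and pollen by their descriptions. Their summed level was 84.9 CPM in flowers of DAH3615-MS and 1767 CPM in flowers of DAH3615, with 355 CPM in floral buds of DAH3615-MS and 1776 CPM in floral buds of DAH3615. Of these genes, 5, 1, 2 and 2 were at 0 in the same libraries. In floral buds, polygalacturonase Cla000802, a member in this list, alone gave 280 of the 355 CPM of DAH3615-MS. It gave 137 of the 1776 CPM of DAH3615. The 19 photosynthesis and chloroplast genes summed to 1572 CPM in flowers of DAH3615-MS and 1463 CPM in flowers of DAH3615, with 1489 CPM in floral buds of DAH3615-MS and 1130 CPM in floral buds of DAH3615. The 44 cell division and chromatin genes, a sign of growing tissue, summed to 1261 CPM in flowers of DAH3615-MS and 1099 CPM in flowers of DAH3615, with 1517 CPM in floral buds of DAH3615-MS and 1346 CPM in floral buds of DAH3615. The 32 ribosome and translation genes summed to 805 and 1030 CPM in flowers and to 1633 and 1608 CPM in floral buds, in the same order of lines. The part of anther loss, of green or growing tissue and of scaling in the values below was not tested.

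The floral bud ratio of the members ran between 2.01 and 11.01 with a median of 2.20. It was under 2.5 for 117 genes and at least 3 for 9 genes. The 95% counting interval of the CPM ratio lay above 1 for all 148 genes, which the limits of the rule all but fixed, and above 2 for 28 genes. Of the 11110 genes it lay above 1 for 4472 and above 2 for 59. It is an exact Clopper-Pearson interval that covers counting error only and says nothing of variation between plants. The median ratio of DAH3615-MS to DAH3615 in flowers was 1.18, and 104 of the members (70.3%) were above 1 there, close to the 64.6% of the 11110 genes under the same column totals. The members had lower levels than most genes of that set of 11110. Their median level was 18.9 CPM in flowers of DAH3615-MS and 16.4 CPM in flowers of DAH3615, with 24.4 CPM in floral buds of DAH3615-MS and 9.86 CPM in floral buds of DAH3615. Among all genes with at least 10 CPM in floral buds of DAH3615-MS the 4 medians were 38.7, 35.9, 40.0 and 37.3 CPM in the same order. Counts in floral buds of DAH3615 were under 30 for 34 members. Together the members took 0.780% of the counts in flowers of DAH3615-MS and 0.671% in flowers of DAH3615, and 0.709% in floral buds of DAH3615-MS against 0.310% in floral buds of DAH3615.

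Most of these genes were not lower in flowers than in floral buds in both lines. In DAH3615-MS, 92 of the 148 genes (62.2%) were lower in flowers than in floral buds, beside 56.3% of all genes with at least 10 CPM in floral buds of DAH3615-MS. In DAH3615, 48 genes (32.4%) were lower in flowers, beside 56% of all such genes. The same 48 genes were lower in flowers in both lines, which is 32.4% of the members beside 47.8% of all such genes. A further 56 (37.8%, beside 35.5%) were higher in flowers in both lines. The remaining 44 (29.7%, beside 8.49%) were lower in flowers of DAH3615-MS and higher in flowers of DAH3615 than in the floral buds of the same line. No gene had the opposite arrangement, because a large ratio in floral buds and a small one in flowers set the DAH3615-MS change below the DAH3615 change for every member. The rule takes genes with a low level in floral buds of DAH3615, which by itself lowers the share that is lower in flowers of that line. The mirrored rule, which takes genes raised in floral buds of DAH3615 only, shows the same for the other line, with 25.4% lower in flowers of DAH3615-MS and 71.1% lower in flowers of DAH3615. The distance of these shares from those of all genes is thus set in part by the rule, and no bud stage is read from it.

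**Figure D1:**
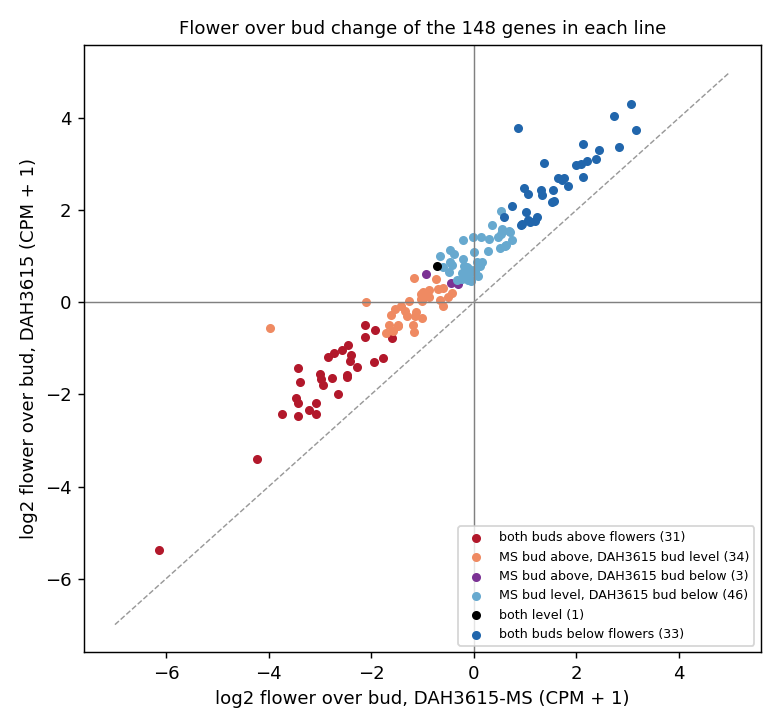
Log2 ratio of flowers over floral buds on CPM + 1 for each of the 148 genes, with DAH3615-MS on the x axis and DAH3615 on the y axis and colours for the position of both buds against the flowers (1 library per condition). All points lie above the dashed line of equal change, 48 genes lie at the lower left (lower in flowers in both lines), 44 in the upper left and 56 in the upper right.

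In the plot of both organ changes the genes form a band that runs along the diagonal and above it, and the rule places every member above it. Cla022396 lies apart at the lower end, at -6.14 in DAH3615-MS and -5.39 in DAH3615. The median log2 ratio of flowers over floral buds was -0.40 in DAH3615-MS and 0.61 in DAH3615, beside -0.12 in DAH3615-MS and -0.10 in DAH3615 over all genes with at least 10 CPM in floral buds of DAH3615-MS. With TMM values and the same 148 genes, the medians were -0.36 in DAH3615-MS and 0.66 in DAH3615. Large changes were common in either direction. A level at least 2-fold lower in flowers in both lines was found for 26 members (17.6%, beside 9.94%), and at least 2-fold higher in both lines for 27 members (18.2%, beside 6.14%). Of the 54 members that were at least 2-fold lower in flowers of DAH3615-MS, 47 (87.0%) were also lower in flowers of DAH3615 and 26 (48.1%) were at least 2-fold lower there. Among all such genes with at least 10 CPM in floral buds of DAH3615-MS, these shares were higher, at 97.6% and 58.7%. The rule sets the DAH3615-MS change below the DAH3615 change for every member, which by itself lowers the shares of the members. By the counting interval in DAH3615, 38 members were lower in flowers (25.7%, beside 38.5% of the 11110 genes), 77 were higher (52.0%, beside 27.8%) and 33 were on neither side of equality (22.3%, beside 33.7%).

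DAH3615 floral buds were then set against the flowers, because a gene of younger buds would leave them between the flowers and DAH3615-MS floral buds. A bud was called above the flowers at 1.5 times or more of the geometric mean of both flower libraries, and below at 0.67 times or less. DAH3615 floral buds were above the flowers for 31 members (20.9%, beside 24.9% of all genes with at least 10 CPM in floral buds of DAH3615-MS), level for 35 and below for 82 (55.4%, beside 20.1%). With limits of 2 and 0.5 they were below for 54 members and level for 70. The position of both buds, a grouping made after the values were seen, gave 4 large patterns. Both buds were above the flowers for 31 genes (20.9%, equal to the 20.9% of the 11110 genes), and both were below for 33 (22.3%, beside 11.8%). DAH3615-MS buds were above and DAH3615 buds level for 34 (23%, beside 8.59%), and DAH3615-MS buds were level and DAH3615 buds below for 46 (31.1%, beside 8.29%), which are arrangements that a bud ratio of at least 2 favours. The other 4 genes were 3 with DAH3615-MS buds above and DAH3615 buds below the flowers, and 1 with both level.

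**Figure D2:**
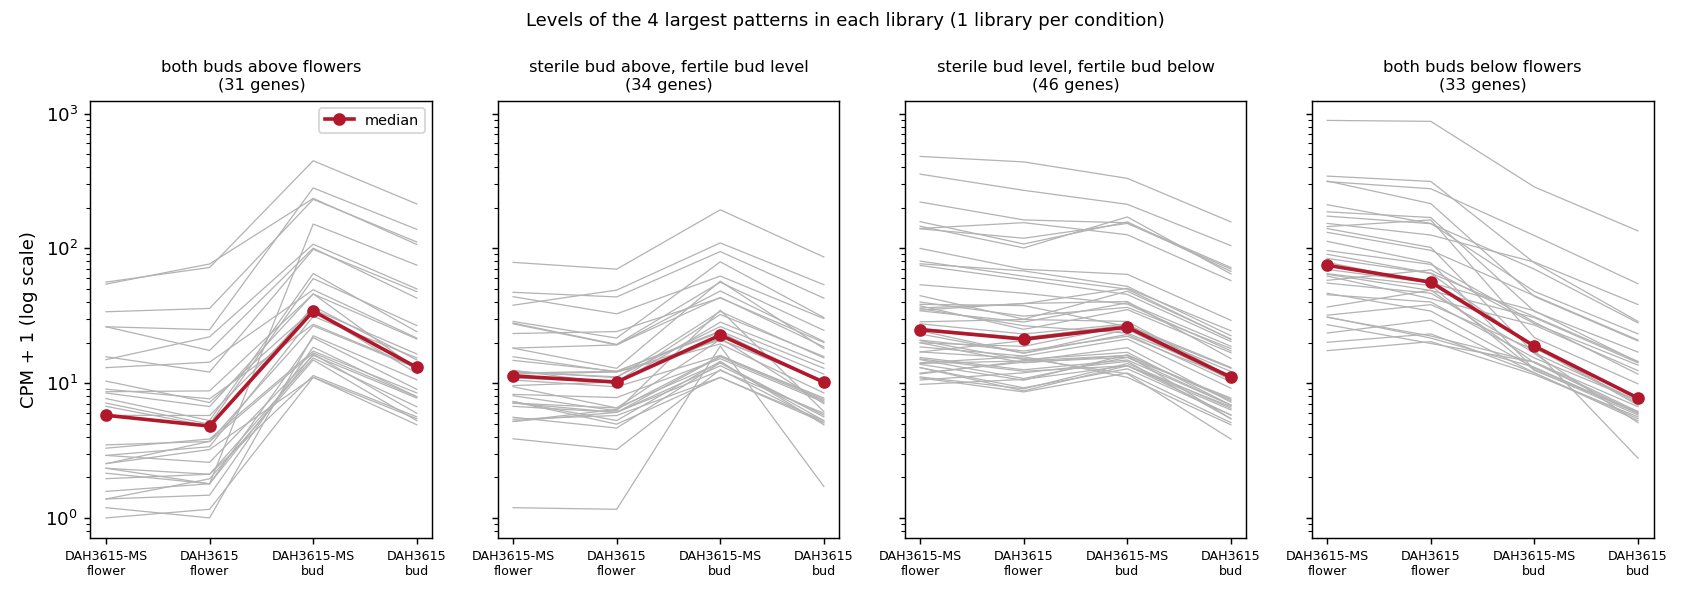
CPM + 1 on a log scale in flowers of DAH3615-MS, DAH3615 flowers, DAH3615-MS floral buds and DAH3615 floral buds for the 4 largest patterns, with 1 grey line per gene and the median in red (1 library per condition). The median of the 31 genes with both buds above the flowers is highest in DAH3615-MS buds, and the median of the 33 genes with both buds below is highest in flowers.

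The plot of the 4 patterns shows that the higher level in DAH3615-MS than in DAH3615 floral buds was set on different courses of expression. The 31 genes with both buds above the flowers had median levels of 4.77 CPM in flowers of DAH3615-MS, 3.80 CPM in flowers of DAH3615, 33.2 CPM in floral buds of DAH3615-MS and 12.1 CPM in floral buds of DAH3615. In these genes DAH3615 floral buds lay between the flowers and DAH3615-MS floral buds. The pattern and the bud ratio of the rule fix this position in advance, so no bud stage is read from it. The 33 genes with both buds below the flowers had medians of 73.9 CPM in flowers of DAH3615-MS, 55.1 CPM in flowers of DAH3615, 17.8 CPM in floral buds of DAH3615-MS and 6.75 CPM in floral buds of DAH3615. Here DAH3615-MS floral buds were the closer of both buds to the flowers, which the pattern and the rule also fix in advance. The 46 genes with DAH3615-MS buds level and DAH3615 buds below had medians of 24.0 CPM in flowers of DAH3615-MS, 20.2 CPM in flowers of DAH3615, 25.01 CPM in floral buds of DAH3615-MS and 10.03 CPM in floral buds of DAH3615, so that DAH3615 floral buds stood apart from the other 3 libraries. The 34 genes with DAH3615-MS buds above and DAH3615 buds level had medians of 10.3 CPM in flowers of DAH3615-MS, 9.18 CPM in flowers of DAH3615, 21.7 CPM in floral buds of DAH3615-MS and 9.15 CPM in floral buds of DAH3615, so that DAH3615-MS floral buds stood apart. In the patterns of 46 and 34 genes the definition also fixes in advance which bud library stood apart.

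The organs were also compared by the quasi-likelihood method of edgeR, in a model with a term for the line and a term for the organ, at an adjusted p under 0.01. All 148 members were among the 19732 genes fitted. The fit uses the libraries that chose the members, so its calls for them are given as a description, and nothing is read from their share. Lower in flowers were 26 members (17.6%, beside 7.58% of all genes tested and 12.2% of those with at least 10 CPM in floral buds of DAH3615-MS) and higher were 31 (20.9%, beside 7.59% and 9.23%). The newer quasi-likelihood form, an alternative added after the data were seen, called 15 members lower and 17 higher. Over all genes tested it called 647 and 764. The calls of Cla016840, Cla010215, Cla006580 and Cla003165 were among the lost ones. The pattern with both buds above the flowers held 25 of the 26 called lower, and the pattern with both buds below held 29 of the 31 called higher. These patterns use the same bud and flower libraries as the test, so such an overlap is all but fixed in advance. Over the set of 11110 genes, the same patterns held 1348 of the 1353 called lower and 989 of the 1025 called higher. The model has 1 residual degree of freedom, the difference between lines in the organ change, which the rule makes large for every member, so it holds no measure of the spread among plants. With 1 library left out, organ alone was fitted to the remaining 3, which leaves 1 organ with a single library that is taken to vary like the other organ. This fit called 0 of the 148 members and 0 of all genes at the adjusted threshold, whichever library was left out. The median fitted log2 change of the members was then -0.35 without DAH3615 floral buds and 0.79 without DAH3615-MS floral buds. Without DAH3615 flowers it was 0.14 and without DAH3615-MS flowers 0.05. The rule takes a high level in DAH3615-MS floral buds and a low one in DAH3615 floral buds. The bud library that remains therefore sets this shift in part.

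The clearest genes of floral buds were nearly silent in flowers. Cla022396 (chromosome 8, 23272699 to 23281145) had 6 counts in flowers of DAH3615-MS, 5 in flowers of DAH3615, 869 in floral buds of DAH3615-MS and 417 in floral buds of DAH3615. Both floral bud libraries were far above both flower libraries, and the floral bud ratio of the CPM values was 2.03 with a counting interval of 1.80 to 2.29. The flower level was 0.00762 times that of floral buds in DAH3615-MS (counting interval 0.00279 to 0.0166) and 0.0107 times in DAH3615 (0.00345 to 0.0251). Cla018800 (chromosome 6, 22268159 to 22268761) had 1 count in flowers of DAH3615-MS and 0 in flowers of DAH3615, with 124 in floral buds of DAH3615-MS and 54 in floral buds of DAH3615. Against the floor of 3 counts its level in floral buds of DAH3615 was 20.2-fold higher than in flowers of DAH3615. The counting interval of the ratio without the floor began at 15.9. Cla020819 (chromosome 5, 26500696 to 26501148) had 0 counts in flowers of DAH3615-MS and 1 in flowers of DAH3615, with 58 in floral buds of DAH3615-MS and 22 in floral buds of DAH3615. Against the same floor its level in floral buds of DAH3615-MS was 17.5-fold higher than in flowers of DAH3615-MS. Without the floor the counting interval of this ratio began at 13.8. In both genes the flower libraries were under the floor and the floral bud libraries above it. The annotation used here gives these 3 genes no description.

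Polygalacturonase Cla000802 was the most abundant in floral buds among the 14 members whose description at hand names a function. Polygalacturonases cut pectin in the plant cell wall and are known to act when cells separate, as in opening anthers and ripening fruit. The gene lies on sequence not placed on a chromosome (chromosome 0, 18913480 to 18917852). It had 25.2 CPM in flowers of DAH3615-MS, 23.9 CPM in flowers of DAH3615, 280 CPM in floral buds of DAH3615-MS and 137 CPM in floral buds of DAH3615. Floral buds were above flowers in both lines, and in flowers the lines differed by less than the limit of the rule. The flower level was 0.0901 times that of floral buds in DAH3615-MS (counting interval 0.0749 to 0.108) and 0.174 times in DAH3615 (0.145 to 0.208). Its description also placed it among the 16 anther and pollen genes, whose summed level ran the other way between the lines, with 355 CPM in floral buds of DAH3615-MS and 1776 CPM in floral buds of DAH3615. These sums include its own 280 and 137 CPM, so most of the sum in DAH3615-MS floral buds came from this gene. In that list 2 genes had a floral bud ratio of at least 2 and 9 a ratio of 0.5 or less.

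The highest level in floral buds of DAH3615-MS was that of Cla016840 (chromosome 11, 25361589 to 25367138). It had 55.2 CPM in flowers of DAH3615-MS, 71.1 CPM in flowers of DAH3615, 445 CPM in floral buds of DAH3615-MS and 212 CPM in floral buds of DAH3615. The flower level was 0.124 times that of floral buds in DAH3615-MS (counting interval 0.109 to 0.140) and 0.335 times in DAH3615 (0.300 to 0.373). Amino acid transporter Cla002657, of a class of membrane proteins that carry amino acids into cells, had 53.3 CPM in flowers of DAH3615-MS, 75.5 CPM in flowers of DAH3615, 234 CPM in floral buds of DAH3615-MS and 106 CPM in floral buds of DAH3615. Flowers had 0.228 times the floral bud level in DAH3615-MS and 0.714 times in DAH3615. Cla010215, with no description, had 32.8 CPM in flowers of DAH3615-MS, 34.8 CPM in flowers of DAH3615, 230 CPM in floral buds of DAH3615-MS and 110 CPM in floral buds of DAH3615. Cla018618 had 7.44 CPM in flowers of DAH3615-MS, 5.70 CPM in flowers of DAH3615, 45.0 CPM in floral buds of DAH3615-MS and 11.7 CPM in floral buds of DAH3615. In both of these genes each floral bud library was above each flower library.

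The 9 members with a floral bud ratio of at least 3 did not share 1 course of expression. Cla004807 (chromosome 3, 23918954 to 23923195) had the largest ratio, 11.01 on CPM + 1, from 103 counts in floral buds of DAH3615-MS and 4 in floral buds of DAH3615, with 1 count in flowers of DAH3615-MS and 1 in flowers of DAH3615. Its reads thus came almost wholly from DAH3615-MS floral buds, and the ratio of the CPM values was 25.1 with a counting interval of 9.51 to 93.8. Cla013063 (chromosome 5, 10508031 to 10508864) had the next largest ratio but was higher in flowers than in floral buds in both lines, with 162 counts in flowers of DAH3615-MS, 235 in flowers of DAH3615, 96 in floral buds of DAH3615-MS and 10 in floral buds of DAH3615. Here DAH3615 floral buds were the library that stood apart. Cla006329 (chromosome 3, 22584015 to 22585430) had 7.06 CPM in flowers of DAH3615-MS, 5.22 CPM in flowers of DAH3615, 33.7 CPM in floral buds of DAH3615-MS and 5.15 CPM in floral buds of DAH3615. For this gene DAH3615-MS floral buds stood apart and the other 3 libraries were close to each other. Cla012304 had 17.2 CPM in flowers of DAH3615-MS, 11.9 CPM in flowers of DAH3615, 56.1 CPM in floral buds of DAH3615-MS and 17.0 CPM in floral buds of DAH3615, and Cla003455 had 8.59, 9.18, 20.6 and 6.04 CPM in the same order. In both of these genes DAH3615-MS floral buds were again the highest library.

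Some members of the opposite course were far lower in floral buds than in flowers. Cla001482, described as a light regulated protein-like protein (chromosome 6, 1699929 to 1700563), had 139 CPM in flowers of DAH3615-MS, 101 CPM in flowers of DAH3615, 15.6 CPM in floral buds of DAH3615-MS and 4.08 CPM in floral buds of DAH3615. Flowers were 8.93-fold above floral buds in DAH3615-MS and 24.6-fold in DAH3615, so both buds were far below both flowers. The counting intervals were 7.17 to 11.2 in DAH3615-MS and 16.3 to 39.1 in DAH3615. Cla019483 (chromosome 3, 5748069 to 5752411) had 112 CPM in flowers of DAH3615-MS, 77.1 CPM in flowers of DAH3615, 11.6 CPM in floral buds of DAH3615-MS and 4.79 CPM in floral buds of DAH3615. Cla020608 (chromosome 5, 28281138 to 28281926) had 315 CPM in flowers of DAH3615-MS, 214 CPM in flowers of DAH3615, 42.9 CPM in floral buds of DAH3615-MS and 19.5 CPM in floral buds of DAH3615. In both genes each flower library was far above each floral bud library.

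The most abundant member of all in flowers, Cla006580 (chromosome 11, 1648229 to 1649662), had 888 CPM in flowers of DAH3615-MS, 874 CPM in flowers of DAH3615, 284 CPM in floral buds of DAH3615-MS and 134 CPM in floral buds of DAH3615. The lines were nearly equal in flowers, and DAH3615-MS floral buds lay between the flowers and DAH3615 floral buds. Cla017360 had 342 CPM in flowers of DAH3615-MS, 313 CPM in flowers of DAH3615, 77.0 CPM in floral buds of DAH3615-MS and 27.7 CPM in floral buds of DAH3615. Cla018665 had 144 CPM in flowers of DAH3615-MS, 162 CPM in flowers of DAH3615, 20.8 CPM in floral buds of DAH3615-MS and 8.88 CPM in floral buds of DAH3615. In all 3 genes both flower libraries were above both floral bud libraries. Cla013516 (chromosome 2, 28515663 to 28516715) had DAH3615-MS floral buds level with the flowers within the limits above, with 480 CPM in flowers of DAH3615-MS, 437 CPM in flowers of DAH3615, 329 CPM in floral buds of DAH3615-MS and 156 CPM in floral buds of DAH3615. DAH3615 floral buds were the lowest library.

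**Figure D3:**
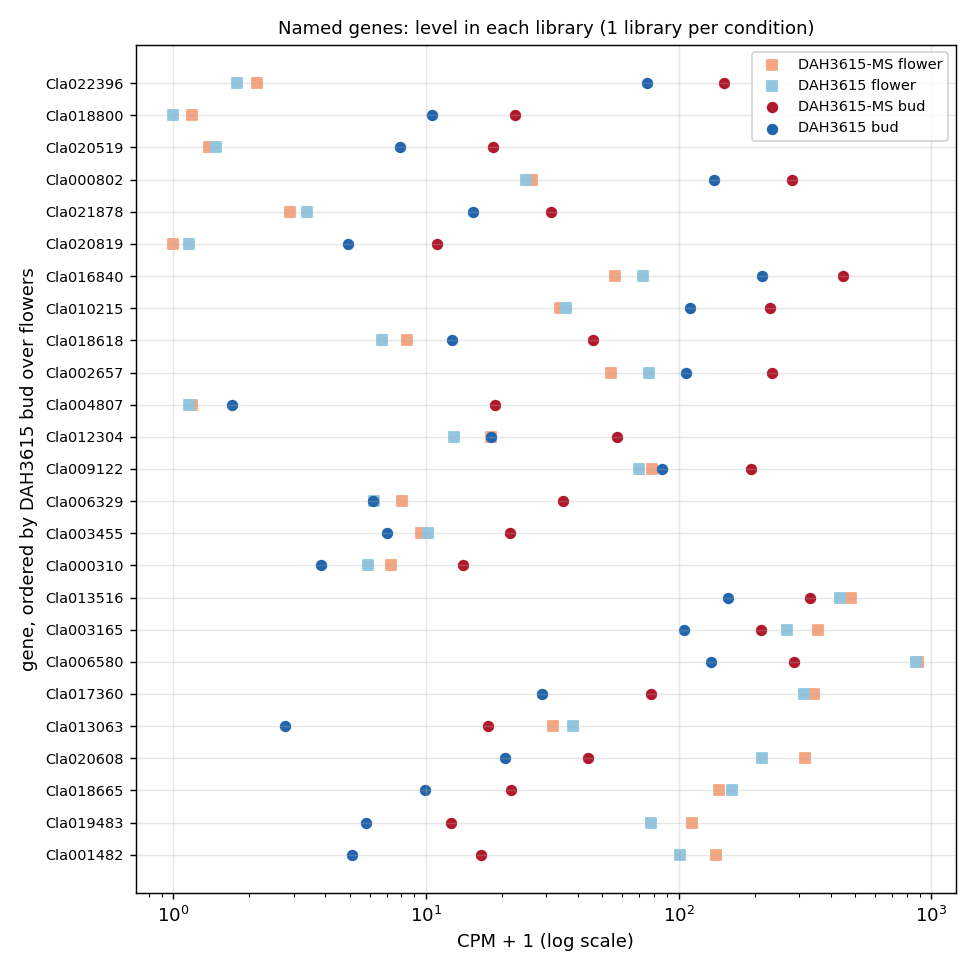
CPM + 1 on a log scale of 25 named members in flowers of DAH3615-MS (light red squares), DAH3615 flowers (light blue squares), DAH3615-MS floral buds (red circles) and DAH3615 floral buds (blue circles), 1 library each, ordered by DAH3615 buds over flowers. At the top, as in Cla022396, circles lie to the right of squares, and at the bottom, as in Cla001482, they lie to the left, with the red circle to the right of the blue one in every gene.

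In the plot of named genes the others lie between these ends, with Cla022396 apart at the top. Its DAH3615 floral buds were 38.3 times the mean of the flowers on CPM + 1, beside 9.70 times for the next gene, Cla018800. Cla009122, near the middle of the plot, had 77.7 CPM in flowers of DAH3615-MS, 69.0 CPM in flowers of DAH3615, 192 CPM in floral buds of DAH3615-MS and 85.2 CPM in floral buds of DAH3615. Only DAH3615-MS floral buds stood apart for this gene. Cla021878 had 1.91 CPM in flowers of DAH3615-MS, 2.38 CPM in flowers of DAH3615, 30.3 CPM in floral buds of DAH3615-MS and 14.4 CPM in floral buds of DAH3615, and Cla020519 had 2 counts in flowers of DAH3615-MS, 3 in flowers of DAH3615, 101 in floral buds of DAH3615-MS and 39 in floral buds of DAH3615. Both were genes of floral buds with little expression in flowers. Cla000310, described as an unknown protein, had only 33 counts in flowers of DAH3615-MS, 31 in flowers of DAH3615, 75 in floral buds of DAH3615-MS and 16 in floral buds of DAH3615. Its flower level lay between both buds.

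A description was at hand for 18 members, because the part of the study's annotation used here covers its first 1999 rows in order of gene ID. It named a function for 14 members and for 948 of all genes with at least 10 CPM in floral buds of DAH3615-MS. By keyword, 2 of the 14 were cell wall genes (14.3%, beside 2.43% of the 948) and 2 transport genes (14.3%, beside 3.9%). A transcription factor (7.14%, beside 4.75%), a photosynthesis gene (7.14%, beside 1.37%) and a secondary metabolism gene (7.14%, beside 2.43%) were found once each. The keywords for kinases and receptors matched 3 members (21.4%, beside 10.7%), of which only Cla002567 was described as a protein kinase. The others were Cla002691, a phosphoribulokinase or uridine kinase, and Cla002991, a nuclear transport receptor described as exportin 4. No member matched the lists for cell division and chromatin (0 of 25 genes with at least 10 CPM in floral buds of DAH3615-MS), ribosome and translation (0 of 20), cuticle, wax and lipid (0 of 14), stress and chaperones (0 of 16), hormones (0 of 10) or defence (0 of 9). With 14 described members these counts are too small to set a list apart.

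The described transporters and cell wall enzymes did not follow 1 direction. Bidirectional sugar transporter Cla002641 belongs to a class of membrane proteins that let sugars pass along their gradient. It had 83.2 CPM in flowers of DAH3615-MS, 64.1 CPM in flowers of DAH3615, 17.1 CPM in floral buds of DAH3615-MS and 6.75 CPM in floral buds of DAH3615. Flowers were 4.86-fold above floral buds in DAH3615-MS and 9.50-fold in DAH3615, whereas the level of the amino acid transporter above was lower in flowers in both lines. WRKY transcription factor 5, Cla002243, of a plant family of DNA-binding regulators, had 77.7 CPM in flowers of DAH3615-MS, 54.0 CPM in flowers of DAH3615, 17.5 CPM in floral buds of DAH3615-MS and 5.86 CPM in floral buds of DAH3615. Peroxidase Cla003190, of a family of enzymes that act on cell walls among other substrates, had 54.2 CPM in flowers of DAH3615-MS, 45.4 CPM in flowers of DAH3615, 15.7 CPM in floral buds of DAH3615-MS and 6.39 CPM in floral buds of DAH3615. Both were higher in flowers in both lines. The cell wall list thus held 1 gene that was lower in flowers, polygalacturonase, and 1 that was higher.

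Acetyl-coenzyme A synthetase Cla003165 makes acetyl-CoA from acetate, a building block of lipids. It had 354 CPM in flowers of DAH3615-MS, 268 CPM in flowers of DAH3615, 211 CPM in floral buds of DAH3615-MS and 104 CPM in floral buds of DAH3615. Flowers were 1.68-fold above floral buds in DAH3615-MS and 2.59-fold in DAH3615. Magnesium chelatase, the enzyme that puts magnesium into the chlorophyll precursor, had a subunit among the members, Cla002769. It had 139 CPM in flowers of DAH3615-MS, 118 CPM in flowers of DAH3615, 152 CPM in floral buds of DAH3615-MS and 69.1 CPM in floral buds of DAH3615. DAH3615 floral buds were the low library of the 4. The same arrangement was found for protein kinase Cla002567, with 18.9 CPM in flowers of DAH3615-MS, 17.7 CPM in flowers of DAH3615, 25.8 CPM in floral buds of DAH3615-MS and 9.59 CPM in floral buds of DAH3615, and for exportin Cla002991, with 9.93, 7.60, 10.9 and 4.08 CPM in the same order. Phosphoribulokinase or uridine kinase Cla002691 had 14.7, 11.1, 19.9 and 9.41 CPM in that order, and methyltransferase type 11 Cla003215, the only member with both buds level with the flowers, had 9.16, 12.7, 15.7 and 6.93 CPM.

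The limits of the rule cut through genes of like values. Just inside the ratio limit were Cla015461 and Cla005159, each with a floral bud ratio of 2.01. Just outside were Cla019541 with a ratio of 1.999 and Cla014334 with 1.998. Cla019541 had 78.4 CPM in floral buds of DAH3615-MS and 38.7 CPM in floral buds of DAH3615. Just inside the level limit were Cla003132, a hydrolase of the alpha/beta fold family, and Cla006868, each with 58 counts in floral buds of DAH3615-MS. Cla016350 had 57 counts there and Cla017036 had 56, and both were left out.

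The mirrored rule took 142 genes raised in floral buds of DAH3615 only. The direction of change in flowers was mixed there as well. Of these genes 36 were lower in flowers in both lines, 41 were higher in both and 63 were higher in flowers of DAH3615-MS and lower in flowers of DAH3615. DAH3615-MS floral buds were below the flowers for 86 of them (60.6%), where DAH3615 floral buds were below the flowers for 82 (55.4%) of the genes raised in floral buds of DAH3615-MS. Level flowers and a 2-fold bud difference favour this arrangement in both sets. The median gene spanned 2020 bp among the 148 members and 1978 bp in the mirrored set, beside 3114 bp over all genes with at least 10 CPM in floral buds of DAH3615-MS.

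**Figure D4:**
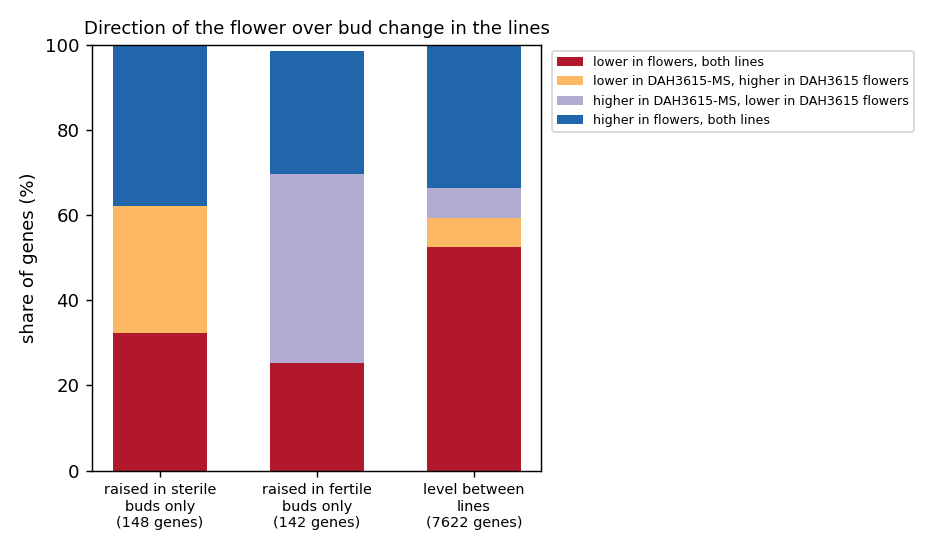
Share of genes (%) by the direction of flowers over floral buds in the lines, for the 148 genes raised in sterile buds only, the 142 genes raised in fertile buds only and 7622 genes level between lines in both organs (1 library per condition). The mixed direction takes 44 of the 148 genes and 63 of the 142, and 2 of the 142 had equal values in an organ pair and are not drawn.

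In the plot of directions both sets have a large share of genes with opposite directions in the lines, which their rules favour. To set the organ change first, genes with a flower ratio between 0.67 and 1.5 and at least 10 CPM in 1 of the libraries were grouped by it. Of 879 genes at least 2-fold lower in flowers in both lines, 26 (2.96%) had a floral bud ratio of at least 2 and 9 (1.02%) a ratio of 0.5 or less. Of 767 genes at least 2-fold higher in flowers in both lines, 40 (5.22%) had a ratio of at least 2 and 22 (2.87%) a ratio of 0.5 or less. Of the other 7922 genes, 102 (1.29%) and 126 (1.59%) had such ratios. Large floral bud ratios towards DAH3615-MS were thus counted more often than towards DAH3615 among genes of either course. The ratios use column totals, which put the median gene towards DAH3615-MS as given above, and the shares were not tested.

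The members were spread over the genome. Their share of the genes with at least 10 CPM in floral buds of DAH3615-MS was lowest on chromosome 9 (0.623%, 7 of 1124) and highest on chromosome 3 (1.86%, 15 of 806). Only 5 pairs of members had at most 5 genes between them, and no run of 3 was found. The only direct neighbours were Cla013515 and Cla013516 on chromosome 2, 5177 bp apart. Cla013515 had 29.8 CPM in flowers of DAH3615-MS, 21.4 CPM in flowers of DAH3615, 13.3 CPM in floral buds of DAH3615-MS and 5.68 CPM in floral buds of DAH3615, and like Cla013516 it was higher in flowers than in floral buds in both lines.

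The number of members depended on the scaling of the libraries. With TMM sizes the rule gave 87 genes, of which 78 were shared with the 148, and 23 of the 87 (26.4%) were lower in flowers in both lines. Scaling by the median of ratios gave 90 genes, 81 of them shared, with 23 (25.6%) lower in flowers in both lines.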

How the data were processed

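RNA-seq libraries of flowers and floral buds of DAH3615-MS and DAH3615 (4 libraries, 1 per condition) were analysed. Per gene, the deposited table gives raw counts, all whole numbers. The authors obtained these counts with HTSeq, after Trimmomatic trimming and Bowtie2 alignment (in TopHat2) of the read pairs to version 1 of the watermelon reference genome. Tool versions, the strand setting and the treatment of reads with several matches are not given in the sources used here, so genes with near-identical copies or antisense partners are uncertain. Gene positions are those of the count table, and no sequence was examined.

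CPM used column totals of 5239032 to 6315796 counts. Intervals at 95% were exact (Clopper-Pearson), and a count of 0 was replaced by a floor of 3 counts for folds. Both cover counting error only. A model with additive terms for line and for organ was fitted to the 19732 genes with a count in edgeR 4.0.16 under R 4.3.3 (TMM, quasi-likelihood test, prior degrees of freedom 6.43, biological coefficient of variation 0.174), and p-values were adjusted by Benjamini-Hochberg. On simulated counts of the organ comparison, over 19436 genes, the test recovered 100 of 103 genes changed by a log2 of 2 and 97 of 97 changed by 3, with 3 false calls. The simulated counts had no difference between lines, and their spread was that fitted to the same 4 libraries. These rates therefore hold neither for the members, chosen for a difference between lines, nor for variation between plants. Summaries used Python 3.11.15, pandas 2.3.3 and scipy 1.17.1.

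The members, lists and tests were chosen with earlier results of these data known. Named genes are members with the 8 highest DAH3615-MS floral bud levels, the 8 largest floral bud ratios, the 6 largest and 6 smallest ratios of DAH3615 floral bud to flowers, the 2 genes on either side of each limit, the 3 smallest adjusted p for organ and members with a function in a keyword list. The direct neighbour Cla013515 was named after their values were seen. Alternatives were other scalings, added values, floors, limits and bands in the rule, DESeq2 1.42.0, limma-voom with limma 3.58.1, the likelihood ratio test of edgeR, a filter on low counts, another threshold and the exclusion of each library, with organ alone fitted to the remaining 3. The newer quasi-likelihood form, the likelihood ratio test without a library, and TMM values with the members kept were added after the data were seen.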

Additional observations from a re-analysis of the deposited data

Results flagged for a closer look

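For 44 of the 148 genes the difference between organs had opposite signs in the lines, with a lower level in DAH3615-MS flowers than in DAH3615-MS floral buds and a higher level in DAH3615 flowers than in DAH3615 floral buds. This difference between the lines was not tested, and each line has 1 library per organ. The rule that chose the genes favours this arrangement and leaves no room for its opposite. Among all genes with at least 10 CPM in floral buds of DAH3615-MS, 8.49% had the same arrangement. The genes were counted by sign alone, so changes within counting error are included. Examples are Cla006329 in DAH3615 and Cla015461 in DAH3615-MS, where the counting interval of flowers over floral buds includes equality.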

How the results depend on the processing

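No paired analysis was possible because each condition has 1 library and the labels carry no replicate numbers. The number of members was 148, and it was 87 with TMM sizes in the rule, 90 with median-of-ratios sizes, 62 with 5 added to CPM, 87 with a floor of 20 CPM, 298 with no floor, 989 with a floral bud ratio of 1.5, 9 with a ratio of 3 and 80 with a narrower flower band starting at 0.8. In the same order, members lower in DAH3615-MS flowers numbered 48, 49, 41, 55, 202, 613, 6 and 55. Members lower in DAH3615 flowers, which equal those lower in both lines, numbered 23, 23, 27, 32, 89, 349, 3 and 27. Members at least 2-fold lower in both lines numbered 10, 10, 12, 17, 33, 104, 0 and 15. With 0.5 or 2 added, a floor of 5 CPM or a flower band of 0.5 to 2, members numbered 162, 121, 211 and 217. Over all settings the share lower in both lines was between 25.6% and 43.5%. With limits of 2 and 0.5, DAH3615 floral buds were level with the flowers for 70 members and below for 54.

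The organ test called 26 members lower and 31 higher in flowers, beside 1496 and 1497 of all 19732 genes. The newer quasi-likelihood form, an alternative added after the data were seen, called 15 and 17 members. Over all genes it called 647 and 764. Other tests, sizes, filter and threshold on all 4 libraries gave 23 to 39 lower and 33 to 44 higher. Over all genes these settings, the threshold aside, called 1169 to 2548 lower and 1352 to 2385 higher. Without 1 library, the quasi-likelihood test called 0 members in either direction, and the likelihood ratio test, also added later, 18, 3, 7 and 4 lower and 0, 4, 10 and 2 higher without DAH3615 floral buds, DAH3615 flowers, DAH3615-MS floral buds and DAH3615-MS flowers. In that order the median fitted log2 change of the members was -0.35, 0.14, 0.79 and 0.05. Each of these fits leaves 1 organ with a single library. The rule takes a high level in DAH3615-MS floral buds and a low one in DAH3615 floral buds. Where only 1 bud library remains, the rule therefore sets the direction of the calls and of the median in part. No direction is read from these fits. Depth limits the weakest members: 34 had under 30 counts in DAH3615 floral buds and 54 under 100 in DAH3615-MS floral buds.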
